A study of Mus musculus with 14 samples.

Results

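Follicular helper T (Tfh) cells were compared with naive-gated CD4 T (Tn) cells in lupus-prone triple congenic (TC) mice. The comparison took every TC library of the series, 6 of 14, selected by their strain and cell type labels: 1 Tfh and 1 Tn library for mice 1, 2 and 4. TC mice are named B6.NZM-Sle1NZM2410/AegSle2NZM2410/AegSle3NZM2410/Aeg/LmoJ, a C57BL/6 (B6) background carrying the Sle1, Sle2 and Sle3 intervals of the lupus-prone NZM2410 strain. Titles and cell type labels gave the population, while the source field of every Tn library names Tfh cells and the shared extraction text speaks of WT and KO mice. The mice were female and 8 months old, and none of the labels gives a treatment. Cells came from the spleen. Tfh cells were sorted as CD4+CD44+CD162lo/-PD-1+ and Tn cells as CD4+CD44-, so the Tfh gate used neither CXCR5 nor Foxp3. Every TC mouse carried all 3 intervals, so the TC libraries alone cannot part one interval from another. The other 8 libraries are the same 2 populations from 4 B6 mice of the same age and sex, and they enter below where a TC difference is set against the B6 difference.

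Tfh cells are CD4 T cells that enter B cell follicles and help B cells make antibody, through contacts such as ICOS and CD40 ligand and through cytokines such as interleukin 21. Their identity depends on the repressor Bcl6, and they give up the trafficking receptors and transcription factors that keep naive T cells circulating through lymph nodes in a quiescent state. In lupus-prone mice Tfh cells accumulate in the spleen, and their sterol, glucose and glutamine metabolism and their response to interferon are studied as routes to autoantibody production.

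Each TC library held between 15162309 and 18624762 counts. Values in CPM are counts per 1000000 of the library's effective size, its total multiplied by its TMM factor, and triplets of values follow mice 1, 2 and 4. The sort proteins' own transcripts checked the labels. Pdcd1, encoding PD-1, stood at 541, 373 and 500.4 CPM in Tfh cells and 6.34, 4.2 and 6.57 CPM in Tn cells, and Cd44 at 339, 362 and 366 CPM in Tfh cells and 18.0, 22.1 and 18.4 CPM in Tn cells. Selplg, encoding CD162, stood at 119, 121 and 95.1 CPM in Tfh cells and 528, 508 and 493 CPM in Tn cells. None of these transcripts overlapped between the populations, each in the direction of the gate, and they are not findings of the comparison. The 14 T lineage genes summed to 9180.2, 8959 and 8966 CPM in Tfh and 8693, 8780.0 and 8657 CPM in Tn cells. On the log2 scale Cd3e changed by 0.53 and Cd4 by 0.39, and Cd247 (-0.16), Bcl11b (-0.60) and Thy1 (-1.08) fell. Cd8a, which defines CD8 T cells, had no count in Tfh cells and at most 0.191 CPM in Tn cells.

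Transcripts of other cell types were measured as lists. The 10 B cell markers summed to 77.3, 99.6 and 71.4 CPM in Tfh and 1.34, 1.27 and 2.28 CPM in Tn cells, so the populations did not overlap. Cd22, an inhibitory receptor of B cells, and the B lineage factor Pax5 made up most of the Tfh sum, at 49.5, 79.3 and 46.5 and 20.7, 11.2 and 17.7 CPM. Cd79b rose as well (3.58), while the defining markers Ms4a1 and Cd79a reached at most 0.4 and 0.78 CPM in any TC library and Fcer2a had no count. Immunoglobulin genes took 0.219% ± 0.0475 of Tfh counts and 0.0767% ± 0.00351 of Tn counts (SD, n = 3). The 8 CD8 and NK markers summed to 35.9, 39.8 and 29.9 CPM in Tfh and 68.8, 61.7 and 73.8 CPM in Tn cells, higher in every Tn library, with Cd8b1 lower in Tfh cells (-0.76) and Klrb1c, encoding NK1.1, higher (5.52). The 12 myeloid markers summed to 193, 179.8 and 178 CPM in Tfh and 181, 152 and 181 CPM in Tn cells and overlapped: Itgam (-5.34) and Fcgr3 (-2.25) fell, Ctss was not called (0.17), and S100a8 had no count. Of 7 plasma cell markers 5 were tested. Prdm1 (1.59), Xbp1 (0.97), Derl3 (2.56) and Sdc1 (3.20) rose, and the 1 other was not called but was called lower with mouse as a block. Tnfrsf17 had no count. Of erythroid and platelet markers Itga2b fell (-0.85), Hbb-bs had 6 counts in Tfh and 2 in Tn cells and was not called, and the other 7 did not pass the filter on low counts. Ribosomal protein genes took 2.93% ± 0.0423 of Tfh counts and 6.39% ± 0.316 of Tn counts, and the mitochondrial genome 2.16% ± 0.069 and 1.61% ± 0.0666. The part of these shares in the results below was not tested. In RNA from sorted populations, fewer cells with a transcript and less of it per cell cannot be told apart.

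Tfh and Tn cells differed across most of the transcriptome, and the large differences leaned to the Tfh side. Of 13427 genes tested, 66.2% were called at an edgeR adjusted p below 0.05, which is 8890 genes: 4535 higher in Tfh cells (33.8%) and 4355 lower (32.4%). The counts of list members below are to be read beside these shares. Members with a mean under 0.5 CPM in 1 population passed the filter on low counts mainly through the other, so their direction was largely set by it. Such members included 6 of 22 Th1 and cytotoxic, 5 of 21 Treg and Tfr and 11 of 49 cell cycle genes tested. Of those called, 51.0% were higher, and 61.3% with scaling by library totals alone, which moved the median log2 fold change of all genes from -0.01 to 0.10. The median size of a difference over all genes tested was 0.42 on the log2 scale. Differences of over 2-fold were found for 2437 genes called higher and 1116 called lower. Beyond 16-fold the numbers were 915 and 114, by fitted folds that depend on the prior count where a population had no count. A further asymmetry lay in the genes close to silence: 242 genes called higher had no count in any TC Tn library, and 15 genes called lower had none in any TC Tfh library. The 3 Tfh libraries did not overlap the 3 Tn libraries for 71.3% of genes tested, 35.7% above and 35.6% below.

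**Figure D1:**
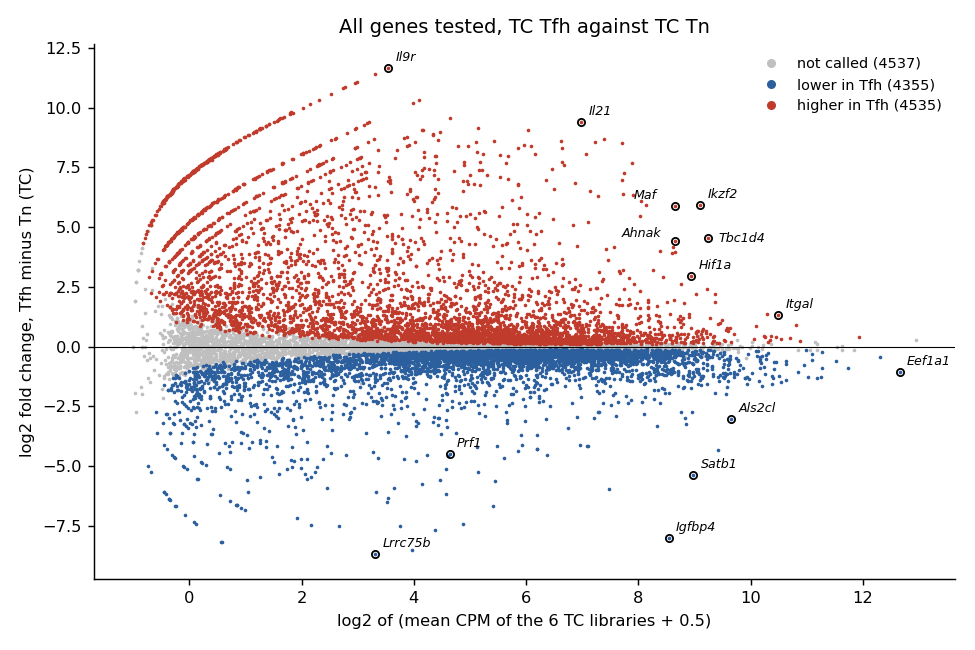
Log2 fold change of TC Tfh minus TC Tn cells against the log2 of the mean CPM of the 6 TC libraries plus 0.5, for all 13427 genes tested. Red points (4535) were called higher in Tfh cells, blue points (4355) lower and grey points (4537) were not called, and the red points reach farther from 0 than the blue ones. The curved rows of points at the upper left are genes with 0 or few counts in Tn cells, whose fitted fold depends on the prior count.

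Some gene classes were left out of the rankings by abundance, fold, spread and interaction. They were ribosomal protein and mitochondrial-genome genes, T cell receptor and immunoglobulin segments, unnamed loci, pseudogenes and the sort genes. Among the genes ranked, the largest rises by abundance belonged to signalling, adhesion and transcription genes. Tbc1d4, a Rab GTPase-activating protein of glucose transporter traffic, stood at 1152, 987 and 1328 CPM in Tfh cells and 49.2, 46.9 and 53.0 CPM in Tn cells (log2 fold change 4.54 ± 0.12 SE, edgeR adjusted p = 4.91e-15). Ahnak, a giant scaffold protein, stood at 689.7, 798 and 826 CPM in Tfh cells and 28.4, 46.6 and 32.1 CPM in Tn cells (log2 fold change 4.44 ± 0.20 SE, edgeR adjusted p = 3.58e-10), and Itgal, the integrin chain of LFA-1, at 1949, 2137 and 2052 CPM in Tfh cells and 788, 829.6 and 844 CPM in Tn cells (log2 fold change 1.32 ± 0.074 SE, edgeR adjusted p = 4.89e-11). In all 3 the lowest Tfh library lay above the highest Tn library. The same rule named Hif1a (2.97), the hypoxia-response factor, Maf (5.90), a driver of interleukin 21 and interleukin 4, Ikzf2 (5.93), encoding Helios, Nfatc1 (2.20), Izumo1r (2.41), encoding folate receptor 4, Slamf6 (1.86), a SLAM family receptor, and the X-inactivation RNA Xist, at 2451, 2265 and 2319 CPM in Tfh cells and 1215, 1267 and 1272 CPM in Tn cells (log2 fold change 0.91 ± 0.14 SE, edgeR adjusted p = 5.31e-05).

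The largest falls by abundance among the genes ranked held translation factors and lymphocyte signalling genes. Als2cl, a Rab5 exchange factor homologue, stood at 193, 164 and 165 CPM in Tfh cells and 1391, 1457 and 1445 CPM in Tn cells (log2 fold change -3.04 ± 0.10 SE, edgeR adjusted p = 5.35e-14), and Dgka, which removes the second messenger diacylglycerol, at 1150.0, 1246 and 1156 CPM in Tfh cells and 2381, 2525 and 2516 CPM in Tn cells (log2 fold change -1.06 ± 0.083 SE, edgeR adjusted p = 4.20e-09). Translation elongation factors Eef1a1 and Eef2 changed by -1.06 and -0.90, and the translationally controlled Tpt1 by -1.30, beside the lower ribosomal protein share given above. Arhgef1, an exchange factor for small GTPases, changed by -0.89, the cytoskeletal linker Macf1 by -1.26, beta-actin (Actb) by -0.44 and the minor antigen gene Hmha1 by -0.61. Every one of these falls was called, and none had overlapping libraries.

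By fold, among ranked genes with a mean of at least 5 CPM in the higher population, those at or near 0 in the other came first. Gfra4, a co-receptor of the GDNF family, had no count in Tn cells and stood at 13.0, 6.69 and 11.9 CPM in Tfh cells, at least 184-fold higher against a floor of 3 counts over the Tn group (edgeR adjusted p = 1.85e-05). Ypel4 likewise had no count in Tn cells and stood at 9.53, 7.07 and 10.1 CPM, at least 155-fold higher (edgeR adjusted p = 8.07e-11). On the falling side, Ly6c1, a GPI-anchored antigen of naive cells whose counts may be shared with the near-identical Ly6c2, stood at 0.628, 0.126 and 0.215 CPM in Tfh cells and 64.1, 53.0 and 55.6 CPM in Tn cells (log2 fold change -7.43 ± 0.23 SE, edgeR adjusted p = 7.42e-14). Adgrg3, an adhesion G protein-coupled receptor, stood at 0, 0.0631 and 0.0537 CPM in Tfh cells, 2 counts in all, against 5.28, 7.31 and 6.96 CPM in Tn cells (edgeR adjusted p = 6.01e-12). Il9r, the interleukin 9 receptor gene, Rassf6, Tmem63c, Itgb5 and Cd109 also had no count in Tn cells, and were at least 378, 259.8, 249, 221 and 214-fold higher in Tfh cells against the same floor. Ces2c had 1 count in Tn cells. On 1 to 3 counts in the lower population, and with exact 95% counting intervals, the ratios were 1716 (308 to 67820) for Tfh over Tn in Ces2c and, for Tn over Tfh, 168 (46.3 to 1397) for Adgrg3, 488 (135 to 4034) for Lrrc75b and 204 (69.3 to 989.5) for Adamts14. The remaining falls named by the rule were those of Pdlim4 (-8.50), Igfbp4, Acvrl1 (-7.66) and Ampd1 (-7.51).

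Helper lineage factors were higher almost without exception. Of 21 Tfh transcription factors tested, 20 rose and none fell, with a median log2 fold change of 2.83, against 33.8% and 32.4% of all genes. Maf stood at 780.1, 755 and 843 CPM in Tfh cells and 15.8, 11.3 and 12.6 CPM in Tn cells and Ascl2, a basic helix-loop-helix factor that induces Cxcr5, at 39.7, 19.7 and 35.1 CPM in Tfh cells and 0, 0.0636 and 0.167 CPM in Tn cells. Bhlhe40, another basic helix-loop-helix factor, stood at 348, 295 and 274 CPM in Tfh cells and 6.01, 3.56 and 2.06 CPM in Tn cells. For all 3 the populations lay apart, and mouse 2 had the lowest Ascl2 of the Tfh libraries. Tox2, a chromatin-binding factor, changed by 8.70. Smaller rises were those of Batf (2.33), Irf4 (3.46) and Tox (2.41), while Stat3, which carries interleukin 6 and 21 signals, was not called (log2 fold change 0.02 ± 0.074 SE, edgeR adjusted p = 0.796). Zbtb32, a zinc finger repressor, had 3 counts in Tn cells against a mean of 48.6 CPM in Tfh cells, a ratio of 839 (exact 95% counting interval 286.8 to 4072).

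Surface and secreted genes of helper cells moved with them. Of 32 tested, 27 rose and 2 fell (median 2.94). Sostdc1, a secreted BMP and Wnt antagonist, stood at 324, 208 and 362 CPM in Tfh cells and 1.17, 0 and 1.06 CPM in Tn cells (log2 fold change 8.58 ± 0.44 SE, edgeR adjusted p = 4.25e-09). S1pr2, the sphingosine receptor that holds cells in the follicle, stood at 103, 61.4 and 80.8 CPM in Tfh cells and 7.06, 6.99 and 6.96 CPM in Tn cells, and Sh2d1a, the SLAM adaptor SAP, at 117, 122 and 126 CPM in Tfh cells and 35.5, 31.3 and 34.8 CPM in Tn cells. These 3 were higher in every Tfh library. P2rx7, an ATP-gated channel, changed by 3.09 and Smco4 by 3.12. Angptl2, a secreted glycoprotein, rose too (8.50). The 2 falls were those of the interleukin 6 receptor gene Il6ra, at 321, 295 and 328 CPM in Tfh cells and 482, 484 and 499 CPM in Tn cells (log2 fold change -0.63 ± 0.086 SE, edgeR adjusted p = 4.56e-06), and of lymphotoxin beta, Ltb (log2 fold change -0.33 ± 0.07 SE, edgeR adjusted p = 0.000417). Cd40lg, encoding the CD40 ligand of B cell help, was not called, at 139.6, 142 and 122 CPM in Tfh cells and 138, 142 and 99.6 CPM in Tn cells (log2 fold change 0.09 ± 0.12 SE, edgeR adjusted p = 0.533), and its libraries overlapped.

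Naive and quiescence genes fell by widely different amounts, from -0.16 for Ets1 to -8.02 for the secreted Igfbp4 on the log2 scale. Of 37 tested, 30 fell and 1 rose (median -1.16). Satb1, a chromatin organiser of naive T cells, stood at 23.2, 30.4 and 17.6 CPM in Tfh cells and 970.3, 972 and 1010.0 CPM in Tn cells (log2 fold change -5.38 ± 0.30 SE, edgeR adjusted p = 1.03e-08). Klf2, which drives S1pr1, stood at 97.2, 150.4 and 81.7 CPM in Tfh cells and 531, 721 and 424 CPM in Tn cells (log2 fold change -2.35 ± 0.27 SE, edgeR adjusted p = 1.12e-05). Both genes separated the populations fully, and mouse 2 had the highest Klf2 in each population. Lef1 (-2.71), Ccr7 (-3.31) and Cd55 (-4.09) fell likewise. S1pr1, the receptor for leaving lymphoid tissue, changed by -1.94, Foxo1 by -1.16, the repressor Bach2 by -2.75 and the Tec kinase Txk by -3.39. The falls of Tcf7 (-0.30) and Ets1 (-0.16), factors kept by Tfh cells, were among the smallest of those called. The anti-proliferative Btg2 (-0.03, adjusted p = 0.754 by edgeR) and Slfn2 (-0.06, adjusted p = 0.554 by edgeR) were not called, and Rgs10 was the one member called higher (0.29).

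**Figure D2:**
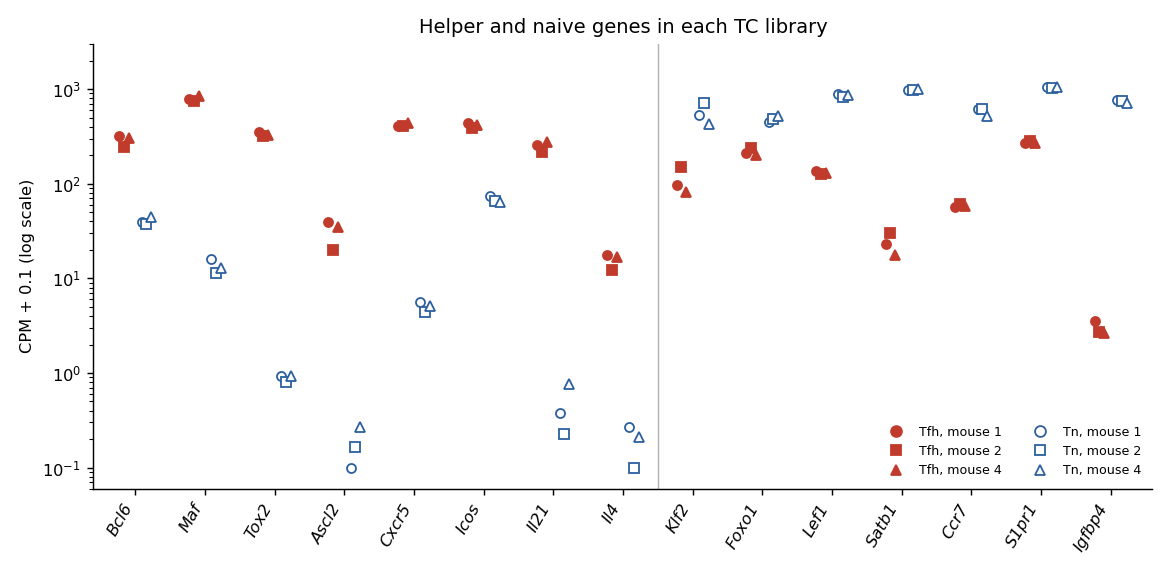
CPM plus 0.1, on a log axis, of 8 helper genes (left) and 7 naive genes (right) in the 3 TC Tfh libraries (filled red) and the 3 TC Tn libraries (open blue), with a symbol for each mouse. No Tfh library overlaps a Tn library for any of these 15 genes.

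Genes of regulatory and other helper lineages were also higher in the Tfh gate, which held no marker to leave those cells out. All 21 Treg and Tfr genes tested rose (median 4.0). Nrp1, a semaphorin receptor of thymic Treg cells, stood at 541, 476 and 549.6 CPM in Tfh cells and 10.4, 4.7 and 7.63 CPM in Tn cells (log2 fold change 6.09 ± 0.19 SE, edgeR adjusted p = 2.26e-12), Ctla4, a CD28 antagonist, at 732, 723 and 434 CPM in Tfh cells and 48.9, 51.0 and 18.5 CPM in Tn cells, and Itgb8, the integrin chain that activates TGF-beta, at 202, 182 and 221 CPM in Tfh cells and 1.06, 0.508 and 1.5 CPM in Tn cells. In each the lowest Tfh library lay above the highest Tn library. Foxp3 stood at 319.5, 392 and 258 CPM in Tfh cells and 29.5, 23.9 and 24.6 CPM in Tn cells, so mouse 4 had the lowest of the Tfh libraries, and the spread of Ebi3, a chain of interleukin 35, followed the same order at 14.2, 22.3 and 13.2 CPM. How many Foxp3+ cells the gate held cannot be told from these files.

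Th1 and cytotoxic genes rose for 14 and fell for 4 of 22 (median 2.41), and the members that fell were mostly those of killing. Tbx21, encoding T-bet, stood at 16.6, 25.1 and 20.8 CPM in Tfh cells and 0.445, 0.699 and 0.223 CPM in Tn cells (log2 fold change 5.52 ± 0.24 SE, edgeR adjusted p = 1.97e-12) and Cxcr3, a chemokine receptor of inflamed tissue, at 167, 172 and 146 CPM in Tfh cells and 1.5, 0.89 and 1.45 CPM in Tn cells (log2 fold change 6.96 ± 0.30 SE, edgeR adjusted p = 4.84e-10). Prf1, encoding the pore protein perforin, ran the other way at 2.57, 2.46 and 1.29 CPM in Tfh cells and 49.6, 45.3 and 45.2 CPM in Tn cells (log2 fold change -4.48 ± 0.29 SE, edgeR adjusted p = 1.38e-08), and so did the granzyme Gzma, at 7.36, 7.07 and 5.05 CPM in Tfh cells and 32.6, 25.2 and 31.2 CPM in Tn cells (log2 fold change -2.20 ± 0.15 SE, edgeR adjusted p = 7.17e-10). Both were higher in every Tn library than in any Tfh library. Ifng (7.0) and Il12rb1 (3.64) rose with Tbx21. Runx3 (-1.08) and Fasl (-0.57) fell with them. The NK receptor gene Klrd1 was likewise higher in Tn cells, at 0.285, 0.316 and 0.215 CPM in Tfh cells and 19.6, 17.5 and 19.3 CPM in Tn cells (log2 fold change -6.09 ± 0.29 SE, edgeR adjusted p = 4.12e-12), while Ncr1 had no count in any TC library and Eomes was not called (log2 fold change 0.76 ± 0.40 SE, edgeR adjusted p = 0.114). Whether other cells within the Tn gate carry these transcripts was not tested. All 11 Th2 and Th17 genes tested, of 18 listed, rose (median 4.79), led by fold by Il4 and Il1rl1. Of the 11, 5 had a mean under 0.5 CPM in 1 population, so their direction was largely set by the filter on low counts. Gata3, the Th2 factor, stood at 165, 198 and 166 CPM in Tfh cells and 64.5, 71.5 and 66.8 CPM in Tn cells (log2 fold change 1.38 ± 0.071 SE, edgeR adjusted p = 1.33e-11) and Ccr4 changed by 4.79, while Il5, Il17a and Il22 had no count in any TC library and Il13 and Il17f stayed under the filter on low counts. Rora, a nuclear receptor of several helper lineages, rose (2.31).

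Chemokine receptor and homing genes rose more often than all genes, beside 33.8% rising and 32.4% falling over all genes tested. Of 33 chemokine receptor and homing genes tested, 18 rose and 10 fell (median 1.09). Itgb1, the beta-1 integrin chain, stood at 708, 787 and 761 CPM in Tfh cells and 48.2, 48.0 and 47.8 CPM in Tn cells (log2 fold change 3.97 ± 0.068 SE, edgeR adjusted p = 2.58e-17), and Itgb3, the beta-3 chain, at 6.39, 8.9 and 5.43 CPM in Tfh cells and 149.6, 156 and 167 CPM in Tn cells (log2 fold change -4.52 ± 0.19 SE, edgeR adjusted p = 1.53e-10). Those 2 integrin chains thus moved in opposite directions, both without overlap. Itgb7, the gut-homing chain, changed by -1.21 and the laminin-binding Itga6 by -1.53, while Itgav rose (2.32). Ccr9, S1pr4 and Itga2 were other members that fell. Gna13, the G protein that confines follicular cells, rose (1.15) while Arhgef1, an exchange factor it acts on, fell (-0.89). Gpr183, the oxysterol receptor that positions cells at follicle edges, was not called (log2 fold change 0.24 ± 0.14 SE, edgeR adjusted p = 0.144). Regulators of G protein signalling, which shorten chemokine signals, rose for 5 and fell for 3 of 10 tested: Rgs16 stood at 295, 189 and 208 CPM in Tfh cells and 2.56, 2.03 and 1.39 CPM in Tn cells, Rgs1 changed by 2.49, and Rgs11 ran the other way at 7.25, 7.39 and 7.53 CPM in Tfh cells and 39.0, 46.9 and 42.0 CPM in Tn cells. Rgs3 rose (0.84), and Rgs14 (-0.50) and Rgs19 (-0.95) fell.

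Receptors for costimulation and inhibition rose side by side. Of 28 costimulatory genes, 19 rose and 3 fell (median 0.54), and of 23 inhibitory and exhaustion genes 18 rose and 1 fell (median 3.02). Tnfsf11, encoding RANK ligand, stood at 107, 143 and 124 CPM in Tfh cells and 3.67, 4.2 and 3.01 CPM in Tn cells (log2 fold change 5.11 ± 0.14 SE, edgeR adjusted p = 4.16e-14) and Tnfsf14, the ligand LIGHT, at 41.0, 55.4 and 51.4 CPM in Tfh cells and 1.0, 0.953 and 0.613 CPM in Tn cells (log2 fold change 5.84 ± 0.20 SE, edgeR adjusted p = 1.14e-13). Lag3, an inhibitory receptor for MHC class II, stood at 454, 296 and 487 CPM in Tfh cells and 3.62, 1.84 and 4.18 CPM in Tn cells (log2 fold change 6.98 ± 0.42 SE, edgeR adjusted p = 3.87e-08). None of the 3 overlapped between populations. Lair1, an inhibitory collagen receptor, was the only inhibitory gene that fell, at 0.514, 0.884 and 0.215 CPM in Tfh cells and 12.6, 13.0 and 11.2 CPM in Tn cells (log2 fold change -4.54 ± 0.26 SE, edgeR adjusted p = 5.59e-11). Tnfrsf4, encoding OX40, rose (3.68), while the SLAM family genes Ly9 (-0.21) and Cd48 (-0.29) fell with Ltb. Cd28 changed by 0.52, and the phosphatases behind inhibitory receptors, Ptpn6 (log2 fold change -0.01 ± 0.072 SE, edgeR adjusted p = 0.916) and Inpp5d (log2 fold change 0.12 ± 0.054 SE, edgeR adjusted p = 0.0585), were not called.

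Genes for extracellular ATP and adenosine went both ways. Of 17 tested, 8 rose and 6 fell, against 33.8% and 32.4% of all genes tested. Nt5e, the ectoenzyme CD73 that makes adenosine, stood at 764, 604 and 805 CPM in Tfh cells and 54.2, 41.2 and 48.9 CPM in Tn cells (log2 fold change 3.91 ± 0.13 SE, edgeR adjusted p = 2.92e-13), Entpd1, the ectoenzyme CD39 that feeds it, changed by 4.50, and the adenosine receptor gene Adora2a by 1.29. Of enzymes that remove adenosine or AMP inside cells, Ada stood at 1.31, 1.45 and 1.29 CPM in Tfh cells and 7.29, 7.75 and 8.13 CPM in Tn cells (log2 fold change -2.51 ± 0.16 SE, edgeR adjusted p = 2.53e-10), Adk changed by -0.52 and Ampd3 by -0.84. The libraries of all 6 genes lay apart. The NAD-consuming Cd38 rose (6.25), and Ampd1 (-7.51), P2ry14 (-1.20) and Entpd5 (-0.81) fell, of which P2ry14 was not called with mouse as a block (edgeR adjusted p = 0.0586).

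Senescence-associated genes rose for 14 and fell for 4 of 21 tested. Their median was 2.23 as fitted and 1.73 with the 3 members at 0 in Tn cells set to their lower bounds. A mean under 0.5 CPM in 1 population was found for 11 of the 21, so their direction was largely set by the filter on low counts. Spp1, encoding osteopontin, stood at 63.7, 45.3 and 98.3 CPM in Tfh cells and 0.167, 0.0636 and 0.111 CPM in Tn cells (log2 fold change 9.14 ± 0.61 SE, edgeR adjusted p = 5.49e-07), Cebpa, a myeloid factor reported in such T cells, at 78.8, 58.5 and 66.0 CPM in Tfh cells and 0.223, 0.191 and 0.111 CPM in Tn cells and Csf1, the macrophage growth factor, at 140.5, 120.5 and 152 CPM in Tfh cells and 4.0, 3.18 and 2.45 CPM in Tn cells. The cell cycle inhibitor Cdkn2a, the classical senescence gene, reached a mean of only 0.191 CPM in Tfh cells and had no count in Tn cells, and Cdkn1a stood at 2.45, 0.884 and 0.86 CPM in Tfh cells. Satb1 and Hmga1 (-0.97), 2 of the members that fell, are chromatin genes, and Serpine2 (-1.44) and Trp53 (-0.15) fell as well.

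Secreted factors beyond the Tfh cytokines were also high. Of 42 cytokines and chemokines listed, 29 were tested, of which 23 rose and 2 fell (Ltb and Fasl). The median of the 29 was 5.04 as fitted and 3.90 with Ccl1, at 0 in Tn cells, set to its lower bound. A mean under 0.5 CPM in 1 population was found for 15 of the 29, so their direction was largely set by the filter on low counts. Cxcl10, an interferon-induced chemokine, stood at 18.1, 24.4 and 24.5 CPM in Tfh cells and 0.223, 0 and 0.223 CPM in Tn cells (log2 fold change 7.11 ± 0.32 SE, edgeR adjusted p = 3.45e-12) and Areg, an EGF receptor ligand of tissue repair, at 7.25, 5.11 and 3.44 CPM in Tfh cells and 0.0556, 0.0636 and 0 CPM in Tn cells, 2 counts in all and so a ratio of 135 (37.1 to 1122), with an edgeR adjusted p = 6.22e-10. Tgfb3 changed by 3.03 and Tnf by 1.68. Cxcl10 and Areg were near 0 in all Tn libraries. Il2, the T cell growth factor, reached only 1.08, 1.39 and 0.968 CPM in Tfh cells, and Il16 (0.44) and Tgfb1 (0.26) changed least among those called higher.

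The letters TGGAAA, the core bound by NFAT factors, were looked for on both strands in the 250 bases before each start site. They were in the windows of 11 of 24 cytokine and chemokine genes with a RefSeq promoter entry (45.8%), against 17.6% of the 9399 tested genes with one. Of those 11, 10 were called higher, none lower and 1 was not called, beside 23 higher of the 29 in the whole list. The window of Il21 is shown as the largest rise among them, 5' to 3' from the RefSeq GRCm38.p6 table (chr3:37232637-37232886, minus strand), with both matches in capitals (TTTCCA is the other strand). Il21 itself stood at 259.7, 218 and 273 CPM in Tfh cells and 0.278, 0.127 and 0.668 CPM in Tn cells.
Il21: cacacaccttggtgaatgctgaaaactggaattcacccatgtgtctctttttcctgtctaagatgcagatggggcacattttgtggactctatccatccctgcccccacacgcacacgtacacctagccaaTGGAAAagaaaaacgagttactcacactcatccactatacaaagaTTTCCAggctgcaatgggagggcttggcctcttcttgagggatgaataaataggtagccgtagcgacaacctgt

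Calcium and NF-kappaB factors were among the lists with few falls. Of 19 NFAT, NF-kappaB and inhibitor genes, 14 rose and 1 fell (median 0.68). Nfatc1 stood at 1022, 1065 and 1149 CPM in Tfh cells and 237, 230.0 and 238 CPM in Tn cells (log2 fold change 2.20 ± 0.064 SE, edgeR adjusted p = 1.09e-14), Nfatc2 changed by 0.81, and Nfatc3 was not called (log2 fold change -0.03 ± 0.068 SE, edgeR adjusted p = 0.734). The calcineurin inhibitors moved in opposite directions: Rcan1 rose (1.12) and Rcan3 fell, at 43.8, 38.1 and 45.6 CPM in Tfh cells and 108, 95.9 and 105 CPM in Tn cells (log2 fold change -1.27 ± 0.068 SE, edgeR adjusted p = 2.49e-11). Members of the NF-kappaB system rose by small amounts, from Tnip1 (0.34) to Tnfaip3 (0.94), and Rela was not called (log2 fold change 0.10 ± 0.059 SE, edgeR adjusted p = 0.131).

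T cell receptor signalling genes went both ways. Of 45 tested, 20 rose and 18 fell (median 0.03), beside 33.8% and 32.4% of all genes tested. The kinase Zap70 stood at 732, 605 and 717 CPM in Tfh cells and 269, 273 and 261 CPM in Tn cells (log2 fold change 1.36 ± 0.073 SE, edgeR adjusted p = 2.70e-11) and the receptor-near kinase Fyn at 927, 932 and 921 CPM in Tfh cells and 466, 482 and 449 CPM in Tn cells (log2 fold change 0.99 ± 0.054 SE, edgeR adjusted p = 3.17e-11). Among adaptors downstream of them, Grap2, the Gads adaptor, stood at 62.4, 85.8 and 58.9 CPM in Tfh cells and 472, 472 and 489.9 CPM in Tn cells (log2 fold change -2.79 ± 0.13 SE, edgeR adjusted p = 3.70e-11). Lat (-0.76), Pag1 (-2.0) and the Ras activator Rasgrp1 (-1.73) fell with it. Inhibitors of the MAP kinase pathway went both ways: Spry1 stood at 171, 146 and 99.4 CPM in Tfh cells and 5.4, 5.72 and 4.57 CPM in Tn cells and Dusp4 at 61.1, 61.1 and 62.9 CPM in Tfh cells and 0.89, 1.21 and 1.78 CPM in Tn cells, while Dusp10 (-1.18) and Dusp5 (-0.51) fell. Ptpn22, a phosphatase of Src kinases linked to autoimmunity, rose (1.39). Other members that fell included Cd247, Vav1, Cblb, Prkcq, Themis and Dusp2. Lck, at 1110.0, 1100.0 and 1112 CPM in Tfh cells and 1093, 1169 and 1115 CPM in Tn cells, was not called (log2 fold change -0.02 ± 0.065 SE, edgeR adjusted p = 0.771), and its libraries overlapped. The fall of Cbl (-0.48) was not called with mouse as a block (edgeR adjusted p = 0.0648).

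Immediate early genes varied by mouse in both populations. Of 25 AP-1, EGR and NR4A genes tested, 15 rose and 4 fell (median 0.47). The sum of the list was 5224, 5967 and 3871 CPM in Tfh and 3589, 4473 and 2343 CPM in Tn cells, highest in mouse 2 and lowest in mouse 4 in each population. Fos, an AP-1 subunit, stood at 649, 916 and 262 CPM in Tfh cells and 361, 867 and 130.5 CPM in Tn cells and was not called (log2 fold change 0.43 ± 0.57 SE, edgeR adjusted p = 0.529), and Fosb stood at 214, 484 and 67.8 CPM in Tfh cells and 15.6, 122 and 4.34 CPM in Tn cells (log2 fold change 2.45 ± 0.92 SE, edgeR adjusted p = 0.0364). Within each mouse the Tfh library had more Fosb than the Tn library, but the Tn library of mouse 2 lay above the Tfh library of mouse 4. Jun (log2 fold change -0.39 ± 0.37 SE, edgeR adjusted p = 0.376) and Junb (log2 fold change -0.03 ± 0.28 SE, edgeR adjusted p = 0.931) were not called either. Other members did not follow the mouse: Egr2, a factor induced by receptor signals, stood at 139, 159.5 and 144 CPM in Tfh cells and 13.5, 16.4 and 17.1 CPM in Tn cells, Maf and Batf rose, and the AP-1 antagonist Bach2 fell, at 36.9, 44.0 and 39.8 CPM in Tfh cells and 270.0, 279 and 264 CPM in Tn cells, with Bach1 (-0.80), Mafk (-0.60) and Ier2 (-0.85). Mafg rose (2.34). Why mice differ in these genes was not tested.

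**Figure D3:**
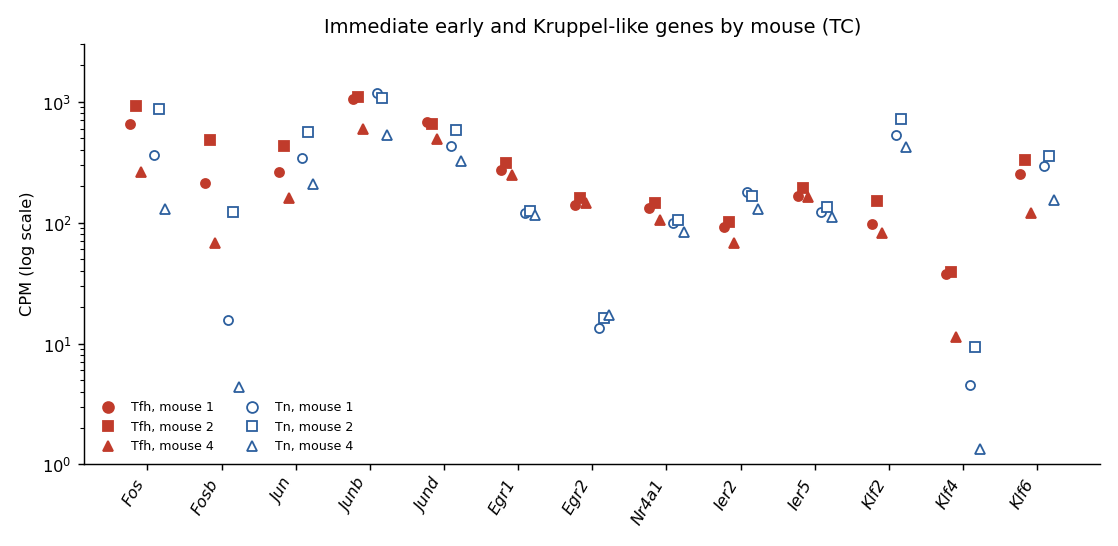
CPM on a log axis of 13 immediate early and Kruppel-like genes in the TC Tfh (filled red) and Tn (open blue) libraries, with a symbol for each mouse. Fos, Fosb, Jun, Klf4 and Klf6 are highest in mouse 2 (squares) and lowest in mouse 4 (triangles) in both populations, while Egr2 separates the populations and not the mice.

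Kruppel-like and forkhead factors fell more often than they rose (10 and 6 of 21, median -0.20), beside 32.4% falling and 33.8% rising over all genes tested. Klf13 stood at 273, 259 and 231 CPM in Tfh cells and 728, 678 and 672 CPM in Tn cells (log2 fold change -1.45 ± 0.06 SE, edgeR adjusted p = 8.84e-13), Foxp1, a keeper of T cell quiescence, changed by -1.15 and Foxk1 by -1.21. Klf10, a TGF-beta-induced repressor, rose (1.93) and so did Klf4 (2.56), one of the genes that varied by mouse. Klf6 was not called (log2 fold change -0.20 ± 0.36 SE, edgeR adjusted p = 0.648). Klf9, Klf12, Foxo4 and Foxp4 were the other members that rose.

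Cytokine receptor and JAK-STAT genes went both ways. In the list 23 rose and 18 fell of 48 tested (median 0.02), beside 33.8% and 32.4% of all genes tested. Il4ra, the interleukin 4 receptor, stood at 77.0, 80.7 and 63.4 CPM in Tfh cells and 396, 378 and 357 CPM in Tn cells (log2 fold change -2.36 ± 0.086 SE, edgeR adjusted p = 1.50e-13), Ifngr2, a chain of the interferon gamma receptor, at 12.2, 13.5 and 13.9 CPM in Tfh cells and 77.3, 73.3 and 72.5 CPM in Tn cells (log2 fold change -2.49 ± 0.089 SE, edgeR adjusted p = 1.16e-13), and Il7r, the receptor for the survival factor interleukin 7, at 215, 199 and 218 CPM in Tfh cells and 774, 596 and 681 CPM in Tn cells (log2 fold change -1.70 ± 0.20 SE, edgeR adjusted p = 7.84e-06). These 3 were lower in every Tfh library. Ifngr1 (-1.56), Tgfbr2 (-0.67), Tgfbr3 (-2.49) and the TGF-beta inhibitor Smad7 (-1.93) fell as well. Il2rb stood at 764, 773 and 682 CPM in Tfh cells and 45.5, 40.4 and 36.9 CPM in Tn cells, Il2ra changed by 1.80, and the shared chain Il2rg fell (-0.57). Jak2 (1.20) and Jak3 (0.64) rose and Jak1 fell (-0.45). Stat2, Stat6, Socs3, Socs4, Pias1, Ifnar1, Acvrl1 and Acvr1b fell too.

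Glycolysis genes rose more often than they fell (19 and 10 of 34, median 0.41). Tpi1, an isomerase of the pathway, stood at 91.0, 58.7 and 80.4 CPM in Tfh cells and 27.4, 25.0 and 23.2 CPM in Tn cells (log2 fold change 1.61 ± 0.13 SE, edgeR adjusted p = 3.31e-08), Gapdh at 307, 248 and 277 CPM in Tfh cells and 165, 156 and 151 CPM in Tn cells (log2 fold change 0.82 ± 0.072 SE, edgeR adjusted p = 1.87e-08) and Hif1a at 992, 740.2 and 874 CPM in Tfh cells and 116, 106 and 112 CPM in Tn cells. All 3 were higher in every Tfh library. Pdk1, a kinase that blocks pyruvate entry into mitochondria and is itself a Hif1a target, was lower, at 55.9, 53.6 and 52.4 CPM in Tfh cells and 268, 245 and 315 CPM in Tn cells (log2 fold change -2.35 ± 0.10 SE, edgeR adjusted p = 3.99e-12), as was Myc, a driver of growth metabolism, at 28.1, 31.5 and 23.6 CPM in Tfh cells and 125, 138 and 100.5 CPM in Tn cells (log2 fold change -2.13 ± 0.12 SE, edgeR adjusted p = 2.69e-10). Among isozymes of a step, Eno2 rose (3.85) while Eno1 (-0.74) and Eno3 (-0.79) fell, and Ldhb rose (0.93) while Ldha fell (-0.59). The glucose transporter Slc2a1 was not called (log2 fold change -0.02 ± 0.10 SE, edgeR adjusted p = 0.875), and Slc2a3 fell (-0.59). Pfkm, Pfkfb2, Slc16a1 and Tigar fell as well.

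Mitochondrial carbon and respiration genes were slightly lower where they changed. Pyruvate dehydrogenase and TCA cycle genes rose for 2 and fell for 16 of 31 (median -0.15), nuclear oxidative phosphorylation genes for 7 and 31 of 73 (median -0.14), and mitochondrial ribosomal protein genes for 4 and 37 of 76 (median -0.18). With scaling by library totals alone these counts became 4 and 10, 13 and 19, and 5 and 23. Idh2, the mitochondrial NADP isocitrate dehydrogenase, stood at 29.2, 24.1 and 25.8 CPM in Tfh cells and 71.8, 63.6 and 69.6 CPM in Tn cells (log2 fold change -1.37 ± 0.074 SE, edgeR adjusted p = 2.63e-11) and the malic enzyme Me2 at 35.9, 41.7 and 35.5 CPM in Tfh cells and 109, 107 and 109 CPM in Tn cells (log2 fold change -1.53 ± 0.064 SE, edgeR adjusted p = 9.89e-13), both without overlap. Cox7a2l, a supercomplex assembly factor, had the largest fall among respiratory genes (log2 fold change -1.31 ± 0.086 SE, edgeR adjusted p = 4.99e-10). Falls also included Pdha1 (-0.44), a subunit of pyruvate dehydrogenase, its phosphatase Pdp2 (-0.90), the respiratory subunits Ndufa10 (-0.67), Ndufa9 (-0.50) and Uqcrfs1 (-0.71), and the ribosomal proteins Mrpl30 (-0.89), Mrps26 (-0.50) and Mrps17 (-0.48). The few rises were those of Aco1 and Fh1, of Ndufb8, Ndufb9, Ndufc2, Ndufs8, Ndufv2, Uqcr11 and Atp5j, and of Mrpl13, Mrpl45, Mrpl52 and Mrps6. Median transcript lengths were 1046 bases for oxidative phosphorylation and 1866 for mitochondrial ribosomal proteins, short against 3178 over all genes with a length. Pyruvate dehydrogenase and TCA cycle genes had a median of 2767 bases. With genes split by length into 4 equal groups, the median log2 fold change was -0.07 in the shortest and 0.00, 0.02 and 0.01 in the others. The part of length in these falls was not tested. Of 7 mitochondrial genome genes tested, mt-Nd1 (0.38), mt-Nd2 (0.31), mt-Nd4 (0.46) and mt-Cytb (0.42) rose and none fell.

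Fatty acid oxidation genes rose for 14 and fell for 4 of 23 (median 0.29). Decr1, an auxiliary enzyme for unsaturated fatty acids, stood at 51.4, 56.4 and 68.2 CPM in Tfh cells and 13.0, 13.9 and 12.2 CPM in Tn cells (log2 fold change 2.17 ± 0.12 SE, edgeR adjusted p = 4.53e-11). Most other rises were under 2-fold, as for Hadha (0.34) and Cpt2 (0.49), and Cpt1a, the gate to the mitochondrion, was not called (log2 fold change 0.27 ± 0.15 SE, edgeR adjusted p = 0.119). Acaa2 (-0.83), Acat1 (-0.55), Acadm (-0.47) and Ppard (-0.40) fell.

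Most sterol and fatty acid synthesis genes fell. Of 37 tested, 27 fell and 4 rose (median -0.41). Sqle, an oxygenase of the sterol branch, stood at 4.17, 4.48 and 3.28 CPM in Tfh cells and 33.2, 40.3 and 33.6 CPM in Tn cells (log2 fold change -3.17 ± 0.17 SE, edgeR adjusted p = 9.46e-11). Hmgcs1, at the start of the mevalonate pathway, stood at 21.6, 23.2 and 20.4 CPM in Tfh cells and 62.3, 78.5 and 67.4 CPM in Tn cells (log2 fold change -1.67 ± 0.083 SE, edgeR adjusted p = 7.76e-12). For both the populations lay apart. Idi1 (-2.68), Mvd (-2.42), Acss2 (-2.36) and Cyp51 (-1.59) fell by more than 2-fold, and so did Srebf2, the factor that drives the pathway, at 173, 189 and 173 CPM in Tfh cells and 376, 398 and 368 CPM in Tn cells (log2 fold change -1.09 ± 0.06 SE, edgeR adjusted p = 3.32e-11). Scd2, a fatty acid desaturase, rose instead, at 229, 208 and 224 CPM in Tfh cells and 70.8, 79.4 and 78.7 CPM in Tn cells (log2 fold change 1.53 ± 0.12 SE, edgeR adjusted p = 2.73e-08), with Pmvk (0.59), Insig2 (0.43) and Stard4 (0.19). Of 11 sterol efflux genes 4 rose and 4 fell, near the 33.8% and 32.4% of all genes tested. Npc2, which exports cholesterol from lysosomes, stood at 106, 108 and 103 CPM in Tfh cells and 472, 435 and 443 CPM in Tn cells (log2 fold change -2.09 ± 0.086 SE, edgeR adjusted p = 6.39e-13), while Abca1 was not called (log2 fold change -0.45 ± 0.20 SE, edgeR adjusted p = 0.0626). Lpcat3 changed by -0.69, and the cholesterol esterifying genes Soat1 and Soat2 by 0.72 and 4.26.

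Promoters of 3 falling sterol genes are shown because most genes of the list with a promoter entry, falling or not, hold the same short motif. The letters CCAAT, bound by NF-Y, which acts beside SREBP factors, were found on one strand or the other within 250 bases before a start site in 24 of 28 list genes with a RefSeq promoter entry (85.7%), against 40.7% of tested genes. Of those 24, 17 were called lower, 2 higher and 5 were not called, beside 27 lower and 4 higher of the 37 tested in the whole list. The sterol element TCACNCCAC was found in 1 of the 28, Hmgcs1 (3.57%, against 1.24%). Windows of 3 genes that fell follow from the RefSeq GRCm38.p6 table, 5' to 3' on the strand of the gene, with matches of both motifs in capitals (ATTGG is CCAAT on the other strand). They are Hmgcs1 (chr13:119690101-119690350, plus strand), Insig1 (chr5:28071162-28071411, plus strand) and Idi1 (chr13:8885356-8885605, plus strand).
Hmgcs1: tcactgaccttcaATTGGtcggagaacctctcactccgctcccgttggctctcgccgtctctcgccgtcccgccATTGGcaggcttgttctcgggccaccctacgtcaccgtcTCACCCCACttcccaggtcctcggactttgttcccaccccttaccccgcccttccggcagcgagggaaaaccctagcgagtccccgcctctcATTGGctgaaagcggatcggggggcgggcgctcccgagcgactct
Insig1: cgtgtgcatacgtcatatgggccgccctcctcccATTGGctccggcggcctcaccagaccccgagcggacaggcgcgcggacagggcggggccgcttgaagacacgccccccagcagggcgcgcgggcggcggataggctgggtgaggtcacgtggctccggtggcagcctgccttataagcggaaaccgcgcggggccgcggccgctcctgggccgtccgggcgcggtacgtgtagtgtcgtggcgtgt
Idi1: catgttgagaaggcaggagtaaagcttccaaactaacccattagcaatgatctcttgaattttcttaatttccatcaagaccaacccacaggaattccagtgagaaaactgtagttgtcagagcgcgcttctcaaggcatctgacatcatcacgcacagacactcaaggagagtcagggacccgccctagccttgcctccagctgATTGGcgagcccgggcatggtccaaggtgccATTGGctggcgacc

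Hmgcs1 holds 3 CCAAT matches and the sterol element, Insig1, the sterol-sensing retention factor that fell by 1.07 on the log2 scale, holds 1, and Idi1, an isomerase of the pathway at 0.571, 0.947 and 0.484 CPM in Tfh cells and 3.73, 5.59 and 3.51 CPM in Tn cells, holds 2.

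Biosynthesis lists leaned down and amino acid lists were mixed, beside 33.8% rising and 32.4% falling over all genes tested. Serine, one-carbon and nucleotide genes rose for 6 and fell for 16 of 28 (median -0.27): Impdh1, which commits purines to GTP, stood at 46.9, 59.1 and 44.9 CPM in Tfh cells and 154, 164 and 152 CPM in Tn cells (log2 fold change -1.64 ± 0.10 SE, edgeR adjusted p = 7.27e-10), while the replication-linked Tyms (1.80) and Rrm2 (1.08) and the serine enzyme Psat1 (1.25) rose with Rrm1 and Mthfd2l. Impdh2 changed by -0.72. Pentose phosphate genes rose for 2 and fell for 4 of 11, with Tkt (-0.56), H6pd (-0.70), Taldo1 (-0.41), Rpia (0.64) and Rpe (0.20) among those called. In the glutamine and amino acid list 12 rose and 11 fell of 26. Slc1a5, a glutamine transporter, stood at 141, 135 and 131 CPM in Tfh cells and 65.1, 67.5 and 57.3 CPM in Tn cells (log2 fold change 1.10 ± 0.11 SE, edgeR adjusted p = 2.72e-07). Slc7a5, the large neutral amino acid transporter, ran the other way at 22.0, 21.5 and 17.7 CPM in Tfh cells and 56.8, 52.5 and 46.8 CPM in Tn cells (log2 fold change -1.35 ± 0.10 SE, edgeR adjusted p = 1.50e-09). Pycr1 (-2.73), Glul (-0.83) and Slc38a2 (-0.98) fell with it, as did Slc6a6, Slc25a22, Got1, Gclc, Gclm and Ppat. Genes of mTOR complexes rose for 4 and fell for 13 of 33, 9 and 11 with library totals. Pik3ip1, a brake on PI3 kinase in resting cells, stood at 37.3, 38.4 and 34.1 CPM in Tfh cells and 200.2, 164 and 195 CPM in Tn cells (log2 fold change -2.35 ± 0.19 SE, edgeR adjusted p = 2.35e-07), and Pik3cd, the lymphocyte PI3 kinase, changed by -0.98. Sesn1 (-1.40) and Pik3r1 (-1.06) changed too, and Phlpp1, Eif4ebp1, Rragd and Flcn rose. Mtor itself was not called (log2 fold change -0.14 ± 0.063 SE, edgeR adjusted p = 0.0544).

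Antioxidant genes went both ways (12 rose and 13 fell of 28, beside 33.8% and 32.4% of all genes tested). Srxn1, which repairs peroxiredoxins, had 3 counts in Tn cells and 17.4, 12.4 and 16.3 CPM in Tfh cells, a ratio of 266 (exact 95% counting interval 90.7 to 1293), and the haem oxygenase Hmox1 stood at 18.3, 15.2 and 16.4 CPM in Tfh cells and 2.28, 2.03 and 1.39 CPM in Tn cells (log2 fold change 3.13 ± 0.14 SE, edgeR adjusted p = 3.01e-12). Nfe2l2, encoding the factor NRF2 that drives both, was lower, at 48.9, 44.6 and 45.1 CPM in Tfh cells and 113, 103 and 106 CPM in Tn cells (log2 fold change -1.22 ± 0.069 SE, edgeR adjusted p = 5.24e-11). Txnip, which binds thioredoxin and limits glucose uptake, stood at 293, 338 and 294 CPM in Tfh cells and 1324, 1178 and 1116 CPM in Tn cells (log2 fold change -1.97 ± 0.20 SE, edgeR adjusted p = 2.27e-06). All of these separated the populations. Aifm2, a ferroptosis suppressor, had 3 counts in Tn cells and rose by a ratio of 132 (44.9 to 644), with the counting interval in brackets. Other rises were those of Mt1, Txnrd2, Txn1, Prdx1, Prdx2, Prdx4, Gsr, Sod2 and Gpx4. The falls also included the peroxiredoxin gene Prdx6 (-1.04).

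Cell cycle genes rose more often than they fell. Of 49 tested, 27 rose and 9 fell (median 0.73). Mki67, a marker of cycling cells, stood at 44.3, 52.0 and 50.5 CPM in Tfh cells and 1.67, 2.35 and 3.01 CPM in Tn cells (log2 fold change 4.38 ± 0.20 SE, edgeR adjusted p = 2.07e-11), and Cdk6, a kinase of G1 progression, at 111, 103 and 109.8 CPM in Tfh cells and 25.4, 26.6 and 22.9 CPM in Tn cells. Cdkn2c, the inhibitor p18, which lies on chromosome 4, stood at 12.0, 8.65 and 10.3 CPM in Tfh cells and 0.334, 0.318 and 0.334 CPM in Tn cells (log2 fold change 4.95 ± 0.24 SE, edgeR adjusted p = 5.23e-12). Mitotic genes such as Ccnb1 (1.66, 1.39 and 1.72 CPM in Tfh cells) and Cdk1 (1.43, 2.21 and 1.72 CPM) stayed at a few CPM. Of the replication helicase genes only Mcm6 rose (1.22), while Mcm4 (-0.18) and Mcm7 (-0.34) fell and Mcm2, Mcm3 and Mcm5 were not called. Cdkn2d, the inhibitor p19, fell (-1.66). Stmn1 (-1.58), Cdk2, Ccnd2, Ccnd3, Aurka and Pcna fell as well.

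Interferon-stimulated genes fell more often than they rose, and close relatives moved in opposite directions. Of 43 tested, 20 fell and 9 rose (median -0.19). Oas2, a sensor of double-stranded RNA, stood at 0.457, 1.14 and 0.914 CPM in Tfh cells and 79.5, 77.9 and 92.9 CPM in Tn cells (log2 fold change -6.64 ± 0.50 SE, edgeR adjusted p = 2.73e-07), whereas its paralogue Oas1a stood at 30.1, 30.1 and 32.0 CPM in Tfh cells and 11.5, 6.55 and 7.79 CPM in Tn cells (log2 fold change 1.82 ± 0.21 SE, edgeR adjusted p = 2.91e-06). Mx1, an antiviral GTPase, rose, at 17.8, 17.5 and 18.9 CPM in Tfh cells and 4.06, 2.1 and 3.84 CPM in Tn cells (log2 fold change 2.42 ± 0.25 SE, edgeR adjusted p = 7.06e-07), while Ifit2 (-1.60), Usp18 (-1.28) and Irf7 (-0.72) fell. Trim30d (1.43), Ifi27l2a, Isg20, Ifih1 and Eif2ak2 also rose, and the RNA sensor gene Ddx58 (-0.90) and Sp100 (-0.87) were among the members of smallest p. Isg15, a common readout of interferon exposure, was not called, at 13.0, 13.3 and 10.7 CPM in Tfh cells and 13.0, 8.07 and 10.9 CPM in Tn cells (log2 fold change 0.20 ± 0.19 SE, edgeR adjusted p = 0.367), and overlapped. Of the interferon gamma GTPase and class I genes 5 rose and 12 fell of 28. Tgtp1 (-1.97), Igtp (-1.04) and Ifi47 (-0.89) fell, Gbp3, Gbp5, Iigp1, Nlrc5 and Ciita rose, and H2-K1 (log2 fold change -0.14 ± 0.081 SE, edgeR adjusted p = 0.132) and B2m (log2 fold change -0.15 ± 0.081 SE, edgeR adjusted p = 0.114) were not called. Paralogues in these families are similar in sequence, so their counts may be shared.

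Some falling and some rising genes held the same promoter motif. The interferon response motif, the letters GAAA, any 2 bases and GAAA again, was found on one strand or the other within 250 bases before the start in 11 of 31 interferon-stimulated genes with a RefSeq promoter entry (35.5%), against 3.18% of tested genes. Of those 11, 5 were called lower, 3 higher and 3 were not called, beside 20 lower and 9 higher of the 43 tested in the whole list. Windows of 60 bases are shown for 2 genes that fell and 2 that rose, with the motif in capitals on either strand (it reads TTTC, 2 bases and TTTC on the other strand), from GRCm38.p6. Ifit1 (chr19:34640769-34640828, plus strand) stood at 14.5, 9.28 and 13.3 CPM in Tfh cells and 31.4, 16.8 and 26.1 CPM in Tn cells and Ifit3 (chr19:34583365-34583424, plus strand) at 4.96, 3.47 and 3.92 CPM in Tfh cells and 14.7, 9.41 and 16.9 CPM in Tn cells, both lower in Tfh cells. Oas1a (chr5:120907526-120907585, minus strand) and Rsad2 (chr12:26456538-26456597, minus strand; log2 fold change 0.93 ± 0.31 SE, edgeR adjusted p = 0.016) were higher.
Ifit1: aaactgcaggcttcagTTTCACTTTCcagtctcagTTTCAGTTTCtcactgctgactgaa
Ifit3: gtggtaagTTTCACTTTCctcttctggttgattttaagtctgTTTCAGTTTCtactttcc
Oas1a: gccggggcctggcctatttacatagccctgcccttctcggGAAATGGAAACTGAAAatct
Rsad2: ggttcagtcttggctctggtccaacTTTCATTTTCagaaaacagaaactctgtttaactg

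Ifit1, Ifit3 and Oas1a each hold 2 matches, overlapping in Oas1a, and Rsad2 holds 1.

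Survival and death genes rose for 17 and fell for 7 of 29 (median 0.45). Casp1 and Casp4, inflammatory caspases, stood at 131, 129.9 and 140.0 CPM in Tfh cells and 8.51, 6.55 and 5.29 CPM in Tn cells and at 133, 118 and 136 CPM in Tfh cells and 4.84, 4.2 and 4.4 CPM in Tn cells, and both separated the populations. Pmaip1, encoding the pro-death protein NOXA, stood at 38.8, 36.3 and 21.0 CPM in Tfh cells and 1.17, 1.33 and 0.501 CPM in Tn cells (log2 fold change 5.0 ± 0.37 SE, edgeR adjusted p = 3.65e-08), and the survival genes Bcl2a1b (3.08) and Bcl2l1 (0.84) rose too. Mcl1 (-0.67) and the pro-death Bcl2l11 (-1.02) fell, and Bcl2 was not called (log2 fold change -0.22 ± 0.12 SE, edgeR adjusted p = 0.111). Bcl2l2 (3.18) rose, and Casp8, Cflar, Tnfrsf10b, Fasl and Bcl2l13 fell. Of 15 GIMAP and Schlafen genes 5 rose and 6 fell, near the 33.8% and 32.4% of all genes tested, with Gimap7 (1.26), Gimap1, Gimap3, Gimap5 and Slfn9 higher and Slfn1 (-1.25) and Slfn8 (-0.63) among those lower.

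DNA and histone modifying enzymes rose for 10 and fell for 12 of 30, not far from the shares of all genes (median -0.11). Tet1 and Tet3, which oxidise methylcytosine, fell (-2.52 and -1.08) while Tet2 rose (0.35). Ezh2, the writer of repressive histone methylation, stood at 71.9, 71.1 and 72.1 CPM in Tfh cells and 27.2, 31.9 and 34.0 CPM in Tn cells (log2 fold change 1.21 ± 0.08 SE, edgeR adjusted p = 4.18e-10) and the histone methyltransferase Kmt2d changed by -0.88. Hdac7 (0.81), Hdac9 (5.91), Hdac4, Dnmt3a, Uhrf1, Ezh1, Kdm6a and Kdm6b rose. A list drawn up as candidates of the Sle intervals had 14 genes tested, of which 7 rose and 5 fell, beside 33.8% and 32.4% of all genes tested. Its members were not checked against the bounds of the intervals, so the list does not place a gene in one. Pias3, which lies on chromosome 3, stood at 66.3, 64.8 and 65.5 CPM in Tfh cells and 22.1, 24.0 and 24.8 CPM in Tn cells. The p200 family gene Ifi203 changed by -0.52, while Mndal, of the same family, was not called (log2 fold change -0.09 ± 0.061 SE, edgeR adjusted p = 0.206). Coro1a, an actin regulator, fell (-0.59), with Klf13, Ly9 and Cd48.

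**Figure D4:**
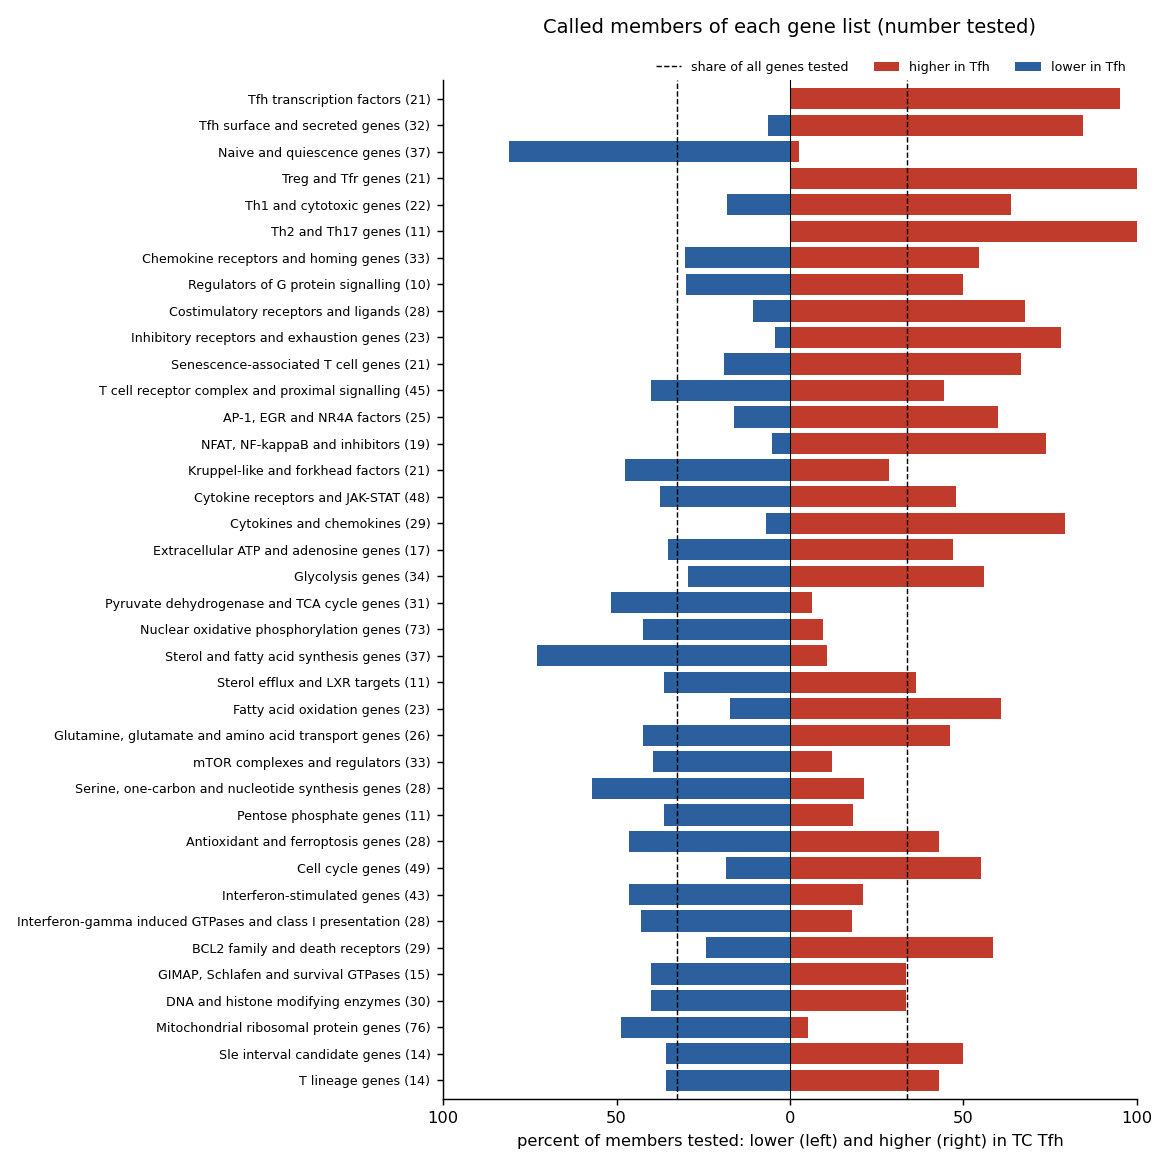
Share of tested members of each gene list called higher (red, right) or lower (blue, left) in TC Tfh than TC Tn cells, for lists with at least 10 members tested (number in brackets). Dashed lines mark the shares over all genes tested, 33.8% and 32.4%. Helper lists reach far to the right of the line, naive and sterol synthesis genes far to the left.

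A few genes depended on the mouse. Ranked by the spread of the Tfh to Tn ratio over mice among called genes of at least 20 CPM in Tfh cells, the first were Rin2, Slc24a3, Fosb, Padi4, Cyp4f18 and Penk. Rin2, a Rab5 exchange factor (chr2:145675215-145887616), stood at 35.3, 0.631 and 32.0 CPM in Tfh cells and 0.111, 0.127 and 0.334 CPM in Tn cells (log2 fold change 6.84 ± 1.42 SE, edgeR adjusted p = 0.00137). Slc24a3, a sodium, potassium and calcium exchanger (chr2:145167754-145642166), stood at 45.3, 4.23 and 44.8 CPM in Tfh cells and 0.167, 0.254 and 0.167 CPM in Tn cells (log2 fold change 7.31 ± 1.13 SE, edgeR adjusted p = 8.05e-05). Mouse 2 was the low Tfh library for both, and the 2 genes are neighbours on chromosome 2 (GENCODE M21, GRCm38), 33048 bases apart. Tn libraries of all 3 mice were near 0. Padi4, a peptidylarginine deiminase, was also lowest in mouse 2, at 121, 31.4 and 79.4 CPM in Tfh cells, while Cyp4f18, at 37.3, 85.8 and 23.5 CPM, and the proenkephalin gene Penk, at 57.1, 85.9 and 45.5 CPM, were highest there. Of the 15 genes tested within 1 Mb, the pair included, 7 were called higher and 2 lower, beside 33.8% and 32.4% of all genes tested. The nearest to the pair, Naa20, had log2 ratios of 0.73, 0.50 and 0.68 in mice 1, 2 and 4, and Dtd1 was lowest in mouse 2 in both populations, at 24.3, 12.5 and 24.6 CPM in Tfh cells and 19.5, 12.6 and 16.3 CPM in Tn cells. The cause of the mouse 2 values was not tested.

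Where the Tfh to Tn difference in TC was set against that in B6, few genes differed. Of 13427 genes, 282 were called in the interaction (2.1%), the ratio being higher in TC for 116 and lower for 166. The number is not stable: it was 712 (297 higher and 415 lower) with mouse as a block and 533 in DESeq2, and it fell to 182 without the Tfh library of mouse 1, 155 without that of mouse 4, 178 without the Tn library of mouse 1 and 137 without that of mouse 2. Rgl1, a Ral exchange factor (chr1:152516760-152766351), stood at 2.06, 3.16 and 3.55 CPM in Tfh cells and 10.5, 11.8 and 12.1 CPM in Tn cells in TC, a log2 fold change of -1.96 against 2.04 in B6 (interaction -4.0 ± 0.33 SE, edgeR adjusted p = 1.79e-06). Mtus1, a microtubule protein, also changed sign, with -0.91 in TC (82.7, 86.0 and 81.9 CPM in Tfh cells and 160.0, 154 and 156 CPM in Tn cells) against 2.75 in B6 (interaction -3.65 ± 0.41 SE, edgeR adjusted p = 2.47e-05). Nav2, a neuron navigator protein, had the larger rise in TC, at 46.0, 34.8 and 44.5 CPM in Tfh cells and 0.779, 0.381 and 0.278 CPM in Tn cells, 6.41 against 2.76 (interaction 3.66 ± 0.45 SE, edgeR adjusted p = 0.00087). Gzma fell in TC (-2.20) and had a positive value in B6 (0.75; interaction -2.96 ± 0.40 SE, edgeR adjusted p = 0.000406). Lsr and Lmtk3 rose in both strains and less in TC (interactions -3.0 and -2.92). Sqle (-0.95), Cyp51 (-0.54) and Lss (-0.49) of the sterol list had the more negative difference in TC, and so did Txnip (-1.18). Casp1 (0.85), Casp4 (0.81) and Cdkn2c (2.40) had the larger rise in TC. The interaction reads all 4 groups, so a difference between strains in Tn cells alone is enough to give one.

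**Figure D5:**
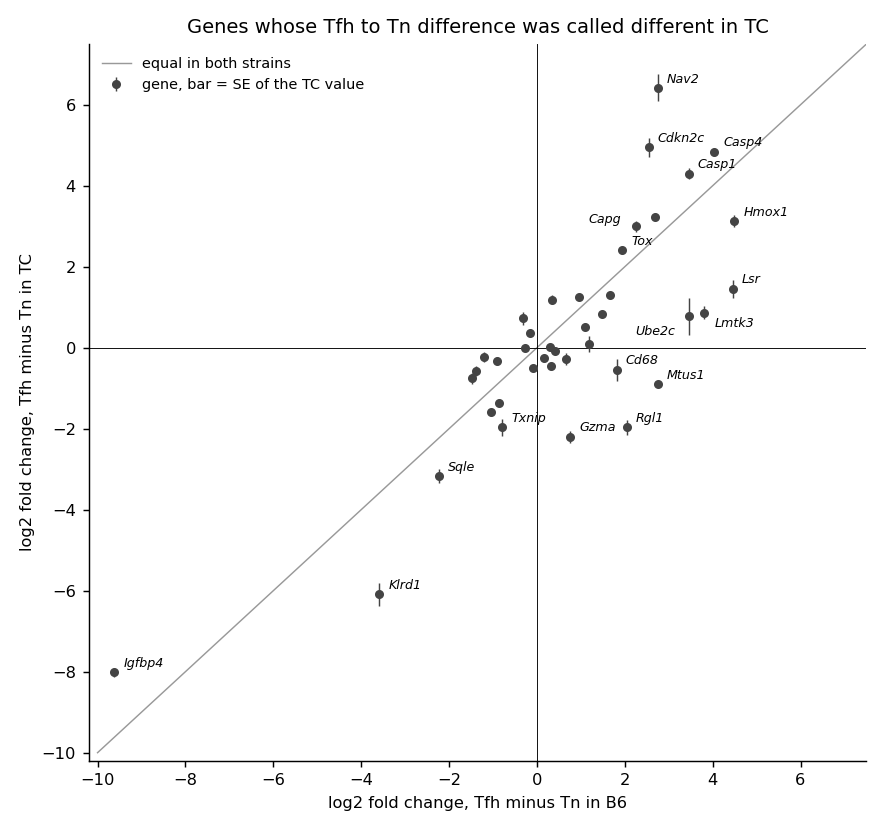
Log2 fold change of Tfh minus Tn cells in TC (vertical, bars are SE) against that in B6 (horizontal) for 40 genes of the lists and naming rules whose difference was called different between the strains. The line marks equal values. Rgl1, Mtus1, Gzma and Cd68 lie below 0 in TC and above 0 in B6, and Nav2 lies far above the line.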

How the data were processed

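RNA-seq was made from sorted splenic CD4 T cells with RNeasy extraction and a TruSeq Stranded kit, per the labels' protocols. The authors deposited raw read counts per gene symbol, 1 column per library, with no pooling. STAR 2.7, the mm10 build and DESeq2 are named in the submitters' processing notes. For the counting tool, strand setting and annotation the sources used here give nothing, so antisense and overlapping genes may share reads. Gene positions and transcript lengths come from GENCODE M21 (GRCm38), which held a length for 12782 of the 13427 genes tested (95.2%), and promoter sequences from the RefSeq GRCm38.p6 table.

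From the counts, genes were kept with filterByExpr of edgeR 4.0.16 (R 4.3.3) at a count minimum of 10 and scaled by TMM. The quasi-likelihood test was fitted over all 14 libraries as 4 groups, so that the groups share 1 estimate of spread. This fit had no block, so its p-values and SE are unpaired unless the block is named. With mouse as a block 9397 genes were called between TC Tfh and Tn cells, against 8890 without it. The call threshold was 0.05 on p-values adjusted by Benjamini-Hochberg over all genes tested. The interaction is the TC difference minus the B6 difference. Ratios per mouse add 0.5 CPM to both values. A group at 0 was set to 3 counts over its 3 libraries, and ratios against 1 to 3 counts carry exact 95% intervals that cover counting error only. TC totals ran from 15162309 to 18624762 counts. Replicate libraries differed beyond counting noise (chi-square per degree of freedom 6.24 to 10.5). Nothing says how the mice were housed or processed in batches, so p-values measure the spread between these libraries.

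Both populations of a mouse carry its number. Deviations from the group means correlated within a mouse at 0.209, 0.207 and 0.257 and between mice at or below -0.0877, and the numbers were taken to pair the libraries. Tested on simulated data for TC (13427 genes, 200 of them changed), the fit recovered 65.7% of 1.5-fold, 76.1% of 2-fold and 90.9% of 4-fold changes, and 3.73% of its calls were false. The simulation changed few genes and drew no effect of mouse, while 66.2% of genes were called in the data. Its rates therefore do not carry over to this comparison. Alternatives were DESeq2 1.42.0, other scalings and filters, a mouse block, TC libraries alone and leaving out each TC library.

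The gene lists and the comparison were chosen with earlier results of these data known. Genes were named by rule: the largest rises and falls by CPM (10 each) and by fold (8 each), the 4 members of smallest p in each list with those called against its majority, the 6 genes of largest spread over mice and the 6 largest interactions. The rankings by CPM, fold, spread and interaction left out ribosomal protein and mitochondrial-genome genes, T cell receptor and immunoglobulin segments, unnamed loci, pseudogenes and the sort genes. Those by CPM and fold asked for no overlap between the populations, and those by fold and interaction for at least 5 CPM in the higher group. Other list members were named for their role after their values were seen. Some list members that enter the counts are not reported here by name.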

Additional observations from a re-analysis of the deposited data

Results flagged for a closer look

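Among the genes named by rule or held in the lists, 40 had a Tfh to Tn difference that differed between TC and B6 in the edgeR interaction (2.1% of all genes tested were called). Values in brackets are log2 ratios, TC minus B6. These calls were the least stable of the comparison, as the counts without single libraries show, and no cause was tested.

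Of genes named by the size of the interaction, the ratio was lower in TC for Rgl1 (-4.00), Mtus1 (-3.65), Lsr (-3.00), Gzma (-2.96) and Lmtk3 (-2.92) and higher for Nav2 (3.66). The NK receptor gene Klrd1 (-2.51) and the myeloid marker Cd68 (-2.36) also had a lower ratio, while Cd8b1 (0.73) had a higher one. Cd68 was the 1 myeloid marker called of 6 tested, and the cytotoxic gene Prf1 was not called (-0.089, edgeR adjusted p = 0.97). In the sterol and fatty acid list the ratio was lower for Sqle (-0.95), Cyp51 (-0.54), Lss (-0.49) and Fads1 (-0.43).

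Cell cycle genes went both ways, lower for Ube2c (-2.70), Plk1 (-1.09), Cdc20 (-0.93) and Mcm5 (-0.29) and higher for Cdkn2c (2.40), Ccne1 (1.05) and Mcm2 (0.28). The inflammatory caspase genes Casp1 (0.85) and Casp4 (0.81) and the survival gene Bcl2 (0.99) had higher ratios. Hmox1 (-1.36) and Txnip (-1.18) had lower ones.

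Of receptor signalling, adhesion and trafficking genes, the ratio was lower for Dusp2 (-0.77), Rgs3 (-0.65), Itga4 (-0.57), Cd6 (-0.49), Gimap9 (-0.41) and Adora2a (-0.36) and higher for Tec (0.82), Egr2 (0.55), Tox (0.47), Gpr83 (0.86) and Capg (0.74). The naive genes Igfbp4 (1.60) and Nsg2 (0.59) fell less in TC. mt-Nd1 (0.53) and Psat1 (0.30) were the remaining genes with a higher ratio.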

How the results depend on the processing

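No gene was called in opposite directions by the main run and with scaling by library totals alone. Small values changed sign there: the median log2 fold change of mTOR genes was -0.04 in the main run and 0.07 with library totals. The counts of genes called between TC Tfh and Tn cells stayed within 1.5 times under every alternative. The interaction was less stable: 533 genes were called with DESeq2 (266 higher and 267 lower), and with mouse as a replicate block 712 (297 and 415). Without single libraries it ranged from 137 to 264 (60 to 144 higher, 74 to 120 lower).

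With scaling by library totals alone, TCA cycle genes gave 4 higher and 10 lower, oxidative phosphorylation 13 and 19, sterol synthesis 7 higher, mTOR genes 9 higher, mitochondrial ribosomal proteins 23 lower and senescence genes 2 lower. Myeloid markers had 1 called higher in DESeq2, with RLE factors, with library totals, in TC libraries alone and with the block, and 1 lower in TC libraries alone and at a count minimum of 50, where plasma cell markers had 2 higher. With no filter the numbers higher were 0 for TCA genes (0 also with TMM factors that leave out receptor, ribosomal and mitochondrial genes), 2 for oxidative phosphorylation, 1 for pentose phosphate, 3 for interferon gamma, 2 for mitochondrial genome and 5 for B cell genes. With the block, plasma cell markers had 1 lower. Without single libraries, the numbers lower ranged from 2 to 4 for senescence, 1 to 2 for cytokines and 10 to 15 for TCA genes, and the numbers higher from 0 to 2 for TCA, 4 to 8 for oxidative phosphorylation, 1 to 2 for pentose phosphate, 3 to 5 for interferon gamma, 0 to 1 for myeloid and 1 to 2 for CD8 and NK genes. The cause was not tested.

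Of single genes, 54 values fell short of the threshold and 6 newly passed it under alternatives other than leaving out a library, against 2751 on the same side. Without single libraries, 96 fell short, 5 newly passed and 2023 stayed on the same side. With the mouse block Cbl (edgeR adjusted p = 0.0648) and P2ry14 (0.0586) were not called, and Cd68 (0.0127) and Ctss (0.0143) were.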

Other observations

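A few other genes differed strongly in 1 TC mouse from the other 2. Among genes of over 10 CPM, a library was compared with the other 2 of its population, asking for a 4-fold gap from both. These genes were chosen after their values were seen, and no cause was tested.

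Unc5a, a netrin receptor gene (chr13:54949411-55006018, plus strand, GRCm38), stood at 0.0571, 18.7 and 0.0537 CPM in Tfh cells of TC mice 1, 2 and 4 and at 0.501, 28.0 and 0.223 CPM in their Tn cells. Among TC mice it was thus present in mouse 2 alone, in both populations. Every B6 library held it, at 19.5 to 30.3 CPM.

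Capn11, a calpain protease gene (chr17:45630204-45659325, minus strand), stood at 17.1 CPM in Tfh and 13.0 CPM in Tn cells of TC mouse 2 and at most 0.269 CPM in the other TC libraries. In B6 it also varied by mouse, reaching 9.09 CPM in Tfh cells and 8.02 CPM in Tn cells of mouse 3 and no count in either population of mouse 1.

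Ltk, a receptor tyrosine kinase gene (chr2:119751320-119760431, minus strand), stood at 0.628, 15 and 14.9 CPM in the TC Tfh libraries, low in mouse 1, and at most 0.676 CPM in B6 Tfh cells. TC Tn cells held at most 0.167 CPM.

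For the neighbours Rin2 and Slc24a3, low in Tfh cells of TC mouse 2, the B6 Tfh libraries stood between 31.3 and 44.1 CPM and between 29.6 and 54.8 CPM.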
